A study of Mus musculus with 6 samples.

Results

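Surface proteins with which microglia sense nucleotides and keep contact with healthy tissue are encoded by 10 genes described here in microglia of LACTB enzymatically dead (ED) and wild-type (WT) mice. They were taken by name as P2ry12, P2ry13, P2ry6, P2rx4, P2rx7, Adora3, Entpd1, Gpr34, Cx3cr1 and Tmem119, and all 10 were among the 15954 genes of the expression table. The ED mice are homozygous for S162I, a change of the serine in the catalytic pocket of the mitochondrial enzyme LACTB, and the controls carry the WT enzyme. Brains of 3-month-old mice were digested enzymatically and cleared of debris by density, and CD11b+ cells were collected with magnetic beads, so any other myeloid cell with CD11b enters the fraction. PolyA RNA was sequenced in 6 libraries, 1 per mouse, from 3 ED and 3 WT mice, and the allele was built as a conditional knock-in in embryonic stem cells. The sources used here do not give how it was switched on or the sex of the mice.

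Microglia read extracellular nucleotides as signs of activity and damage. ATP released by cells opens P2X channels, is trimmed to ADP and AMP by ectonucleotidases such as the product of Entpd1, and ends as adenosine, while ADP and UDP act on P2Y receptors and adenosine on its own G protein-coupled receptors. P2RY12 steers microglial processes toward injury and is typically lost when microglia leave the resting state, as are CX3CR1, the receptor of the neuronal chemokine fractalkine, and the marker protein TMEM119. GPR34 is a receptor for lysophosphatidylserine.

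Values are normalized read counts, that is reads divided by 1 size factor per library. The reads behind them, inferred from the spacing of the values, came to between 26024924 and 28122336 in the ED libraries and between 23394686 and 27432421 in the WT libraries. Lactb itself averaged 1491 ± 32.8 in ED and 1475 ± 85.0 in WT microglia (SD, n = 3 each), a level that says nothing of the base exchanged. Of the microglia markers, Csf1r averaged 281379 ± 7064 in ED and 299672 ± 23159 in WT, and Sall1, the gene of a microglial identity factor, 29309 ± 2004 in ED and 30601 ± 2549 in WT (SD, n = 3 each). Aif1, Itgam, Siglech and Fcrls were listed as well. By contrast the 7 astrocyte markers summed to 7916 to 8609 in ED and 7509 to 9037 in WT, and of 6 lymphocyte markers Cd79b was the single one listed. The 6 oligodendrocyte markers summed to 11469 to 13621 in ED and 11805 to 15474 in WT. The 9 listed monocyte and neutrophil markers summed to 1752, 1511 and 3887 in ED and 2586, 3476 and 1967 in WT. Of these, S100a9 was at 169, 73.1 and 1059 in ED and 266, 523 and 120 in WT, highest in ED replicate 3. The part of monocytes and neutrophils in the differences between libraries was not tested. WT replicate 2 stood apart, with a correlation of 0.981 to 0.987 across genes to the other libraries against 0.987 to 0.992 among the rest. Its endothelial markers summed to 5401, against 2698 to 3470 in ED and 2786 and 3262 in the other WT libraries. In bulk libraries fewer cells of a type and less RNA per cell cannot be told apart.

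Several of the 10 genes lie side by side or inside other genes, on GRCm38 with GENCODE M21. P2ry12 (ENSMUSG00000036353, chr3:59216272-59262871) and P2ry13 (ENSMUSG00000036362, chr3:59207892-59210882) are neighbours on the minus strand, and both lie within Med12l, a Mediator subunit gene on the plus strand. P2rx7 (ENSMUSG00000029468, chr5:122643911-122691432) and P2rx4 (ENSMUSG00000029470, chr5:122707544-122729738) follow each other on the plus strand. Gpr34 (ENSMUSG00000040229, chrX:13632089-13640858) lies within Cask on the other strand, and Adora3 (ENSMUSG00000000562, chr3:105870858-105908926) shares 779 of its 3729 exon bases with Tmigd3 on the same strand. Tmem119 (ENSMUSG00000054675) is at chr5:113793729-113800516 next to Selplg, Cx3cr1 (ENSMUSG00000052336) at chr9:119901616-120069879, Entpd1 (ENSMUSG00000048120) at chr19:40612366-40741602 and P2ry6 (ENSMUSG00000048779) at chr7:100937630-100974649. The sources used here do not give the strand setting of the counting. The shared exon bases are 9 between P2ry12 and Med12l, 0 between P2ry13 and Med12l and 0 between Gpr34 and Cask.

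The sequences before the starts of the 2 neighbouring pairs are shown because the genes of each pair are adjacent on 1 strand. They are the 250 bases before the RefSeq start (build GRCm38.p6), read 5′ to 3′ on the strand of the gene, at chr3:59262986-59263235 (minus strand) for P2ry12, chr3:59210883-59211132 (minus strand) for P2ry13, chr5:122643677-122643926 (plus strand) for P2rx7 and chr5:122707294-122707543 (plus strand) for P2rx4. Capitals mark the letters GAGGAA, the core of sites of the myeloid factor PU.1, and TGTGGT, the core of RUNX sites, on either strand.
P2ry12: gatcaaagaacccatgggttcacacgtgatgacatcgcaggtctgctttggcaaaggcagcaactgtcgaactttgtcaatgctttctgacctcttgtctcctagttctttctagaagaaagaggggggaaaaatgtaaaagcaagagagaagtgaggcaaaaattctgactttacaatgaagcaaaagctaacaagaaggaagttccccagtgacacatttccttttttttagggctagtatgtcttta
P2ry13: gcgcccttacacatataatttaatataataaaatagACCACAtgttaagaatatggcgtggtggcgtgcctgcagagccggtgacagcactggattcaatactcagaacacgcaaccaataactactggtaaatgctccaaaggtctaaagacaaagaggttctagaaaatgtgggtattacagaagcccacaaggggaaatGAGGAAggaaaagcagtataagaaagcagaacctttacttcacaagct
P2rx7: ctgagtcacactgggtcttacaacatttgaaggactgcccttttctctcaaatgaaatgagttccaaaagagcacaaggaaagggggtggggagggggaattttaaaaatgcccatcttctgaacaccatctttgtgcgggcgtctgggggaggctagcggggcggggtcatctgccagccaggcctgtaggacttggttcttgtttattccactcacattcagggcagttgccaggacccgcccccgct
P2rx4: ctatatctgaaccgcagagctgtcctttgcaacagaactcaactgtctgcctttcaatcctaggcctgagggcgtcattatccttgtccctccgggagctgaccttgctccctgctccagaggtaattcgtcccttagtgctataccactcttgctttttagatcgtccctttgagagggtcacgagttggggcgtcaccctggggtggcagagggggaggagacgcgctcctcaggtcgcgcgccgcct

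In the P2ry13 window GAGGAA spans bases 48 to 43 before the start and TGTGGT, on the other strand, bases 214 to 209. The windows of P2ry12, P2rx7 and P2rx4 shown here hold neither. Of the 10 genes 7 matched the promoter table, P2ry6, Gpr34 and Tmem119 not. GAGGAA was also found before Adora3 and before the second annotated start of Entpd1, and TGTGGT before Cx3cr1, and the letters TATAAA were in no window of the 7 genes. These matches did not overlap each other. Among all 32851 windows of this length, 23.3% hold GAGGAA, 14.1% TGTGGT and 12.4% TATAAA, on either strand. The base composition of the neighbours was alike, with 41.6% G and C before both P2ry12 and P2ry13, and 53.6% and 57.2% before P2rx7 and P2rx4.

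The 10 genes differed widely in level per kilobase of exon, a scale that allows comparison between genes. Over the 6 libraries Cx3cr1 was highest at 36604 ± 1809 normalized reads per kilobase, followed by P2ry12 at 35031 ± 4108 and Tmem119 at 30761 ± 2841 (SD, n = 6). P2ry13 stood at 15224 ± 1186 and Gpr34 at 14305 ± 1904. Entpd1 followed at 3941 ± 162, P2ry6 at 2330 ± 212, P2rx7 at 1351 ± 47.3, Adora3 at 785 ± 31.3 and P2rx4 at 331 ± 17.6 per kilobase. The ranges of Cx3cr1 and P2ry12 overlapped, as did those of P2ry12 and Tmem119 and those of P2ry13 and Gpr34. These ranges alone do not settle the order of such neighbours, which was not compared within each library. From Entpd1 downward the ranges did not meet. The G protein-coupled receptors for ADP and fractalkine were thus far above the ATP-gated channels and the adenosine receptor in transcript level. Exon lengths were merged over all annotated transcripts, and a gene with long rare exons is set too low by this.

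**Figure D1:**
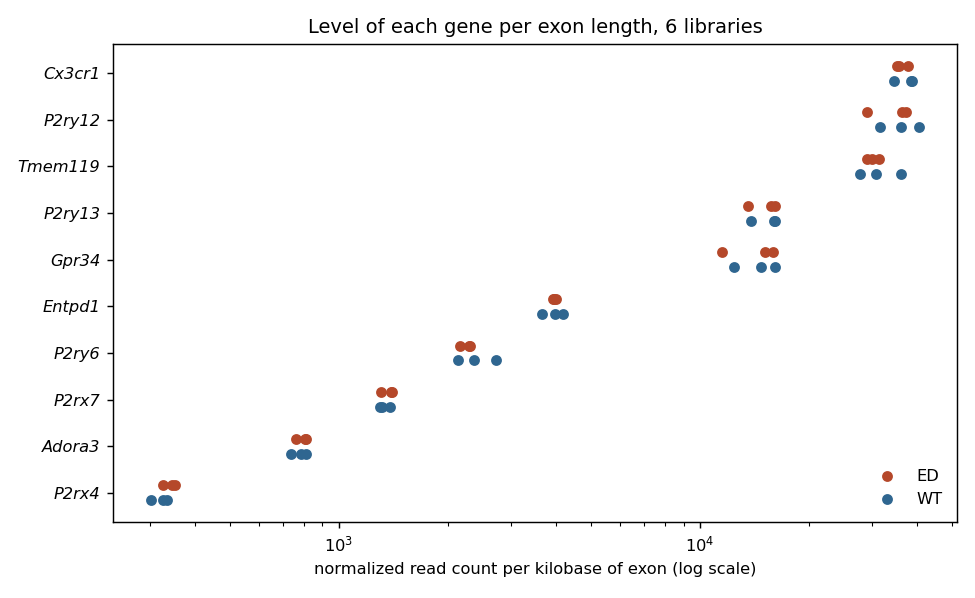
Normalized read count per kilobase of merged exon (log axis) for each gene, with ED libraries in red above WT libraries in blue and 1 point per library. Cx3cr1, P2ry12 and Tmem119 lie near or above 30000 per kilobase and P2rx4 near 331.

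By unscaled value Cx3cr1 ranked 5th and P2ry12 19th of all genes. Together the 10 genes took 1.56% to 1.72% of the summed values in ED libraries and 1.56% to 1.78% in WT libraries. Cx3cr1 alone made up 37.9% ± 1.55 of their sum in ED and 37.9% ± 1.28 in WT microglia, and P2ry12 20.2% ± 1.47 in ED and 20.6% ± 0.772 in WT (SD, n = 3 each).

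The comparison of interest was whether loss of LACTB activity altered the transcript levels of these 10 genes. Levels in ED lay close to those in WT microglia for all 10, and in every case the 3 ED values overlapped the 3 WT values. With limma on log2(value + 1), 0 of 10 genes passed an adjusted p of 0.05, as did 0% of all 15954 genes, and 0 of 10 had an unadjusted p under 0.05, against 1.82% of all genes. No overlap was seen for 0 of the 10 genes, where 3.42% of all genes had every ED value below WT and 2.32% every ED value above. The log2 fold changes ran from -0.09 for P2ry6 to 0.09 for P2rx4, with a median of -0.02 beside -0.0033 over all genes. Of the 10 genes 6 were lower and 4 higher in ED, beside 51.4% of all genes lower and 48.6% higher, and this split became 5 and 5 with libraries scaled to the same total and 4 lower and 6 higher when scaled by the microglia markers. Without WT replicate 2 only Cx3cr1 was lower and the other 9 higher, and without ED replicate 3 there were 3 lower and 7 higher. Without WT replicate 3 the split was 8 lower and 2 higher, and the median over the 10 genes was -0.09 on the log2 scale.

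**Figure D2:**
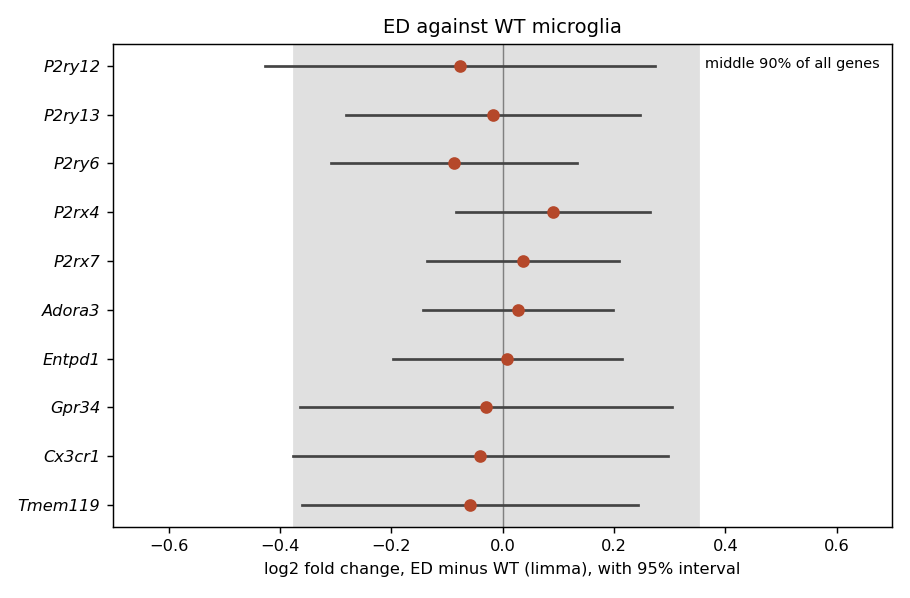
Log2 fold change of ED over WT for each gene (points) with its 95% limma interval (lines), and the middle 90% of all genes shaded from -0.38 to 0.35. All 10 intervals include 0.

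The 95% intervals set the size of a difference that 3 mice per genotype could miss. They were widest for P2ry12, from -25.6% to 20.9% of the WT level, followed by Cx3cr1, from -23.0% to 22.8%, and Gpr34, from -22.3% to 23.5%. For P2rx4 they ran from -5.67% to 20.1%, and for Adora3 from -9.47% to 14.7%. Absence of a call therefore does not show equal levels. The SD behind each interval was moderated by limma toward that of genes of like level. Cx3cr1 had a residual SD of only 0.08 on the log2 scale, above that of 23.2% of genes with a mean of at least 1000. Its wide interval thus reflects that moderation more than its own spread.

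Among the P2Y receptors, the ADP receptor gene P2ry12 had 92179, 94506 and 73904 in ED and 91552, 102896 and 80094 in WT microglia. The lowest value was that of ED replicate 3 and the highest that of WT replicate 2, with the genotypes fully intermixed. The means were 86863 ± 11283 in ED and 91514 ± 11401 in WT (SD, n = 3 each; log2 fold change -0.08, SE 0.16, limma adjusted p = 1, exact permutation p = 0.7). Its neighbour P2ry13, a further ADP receptor gene, had 39776, 40745 and 34281 in ED, against 40670, 40422 and 35022 in WT. Here replicate 3 of either genotype was the low one and the other 4 libraries lay within a narrow band. The fold change was -0.02 on the log2 scale (SE 0.12). P2ry6, the UDP receptor gene linked to phagocytosis, had 6665, 6607 and 6247 in ED and 6827, 7858 and 6151 in WT. WT replicate 2 alone lay well above the rest, and the log2 fold change of -0.09 (SE 0.10) became 0.0053 without it.

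The ATP-gated channels leaned the other way. P2rx4, whose channel opens at low ATP, had 2428, 2284 and 2470 in ED and 2347, 2123 and 2281 in WT microglia. The ED mean of 2394 ± 97.6 was above the WT mean of 2250 ± 115 (log2 fold change 0.09, SE 0.08, limma adjusted p = 1, exact permutation p = 0.2), with ED replicate 2 among the WT values. P2rx7, whose channel needs high ATP and triggers the NLRP3 inflammasome, had 8311, 7822 and 8368 in ED, against 8281, 7760 and 7849 in WT. In both genotypes its values fell into a tight range, 1.08-fold from lowest to highest over the 6 libraries.

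The ratio of P2rx4 to P2rx7 does not depend on how libraries are scaled. It was 0.292, 0.292 and 0.295 in ED and 0.283, 0.274 and 0.291 in WT microglia. All 3 ED ratios lay above all 3 WT ratios, by a log2 difference of 0.05. The exact two-sided permutation p was 0.1, the smallest that 3 against 3 allows, and it was 0.5 after Benjamini-Hochberg adjustment over the 5 ratios tested. The ratios were chosen with earlier results of these data known, so the p-values of this paragraph are descriptive only. The gap was narrow, since ED replicate 2 and WT replicate 3 differed by less than the spread among the WT mice. The log2 difference in favour of ED ranged from 0.030 without WT replicate 2 to 0.074 without WT replicate 3. For P2ry12 to P2ry13 the ratio averaged 2.26 ± 0.0939 in ED and 2.36 ± 0.161 in WT (exact permutation p = 0.6), and the ratios of P2ry12 to P2ry6, P2ry12 to Entpd1 and Cx3cr1 to Tmem119 gave p = 1, 0.7 and 0.8 in the same exact test.

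Macrophages other than microglia also express P2rx4, and markers of border-associated macrophages were therefore set beside it. All 8 markers (Mrc1, Cd163, Lyve1, F13a1, Pf4, Ms4a7, Cbr2 and Stab1) were listed, with sums of 52351, 48929 and 58278 in ED and 53326, 41467 and 55363 in WT libraries. In ED 7 of the 8 were higher and 1 lower, with 0 passing. The library with the highest P2rx4 value, ED replicate 3, had the highest sum and the library with the lowest, WT replicate 2, the lowest. Stab1 made up most of the sum, with 37971, 37358 and 44858 in ED and 41131, 30812 and 42237 in WT. Without it the other 7 markers summed to 14380, 11571 and 13420 in ED and 12195, 10655 and 13126 in WT, with ED replicate 1 highest and WT replicate 2 still lowest. The part of these cells in the result was not tested.

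Genes for ATP breakdown and for adenosine sensing varied little between mice. Entpd1, which encodes the ectonucleotidase CD39 that converts ATP and ADP to AMP, had 22245, 21853 and 22026 in ED and 22179, 23230 and 20425 in WT microglia. The ED values lay within the WT range, at a mean of 22041 ± 196 against 21944 ± 1417 in WT (log2 fold change 0.01, SE 0.09). Adora3, the adenosine A3 receptor gene, had 3027, 2999 and 2834 in ED, against 3023, 2936 and 2740 in WT, with replicate 3 lowest in both genotypes. Its overlapping neighbour Tmigd3 was at 51.1 ± 6.93 in ED and 47.3 ± 20.6 in WT, far below Adora3.

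Gpr34 varied most between mice. It had 31676, 33262 and 24026 in ED and 30749, 33679 and 25996 in WT microglia, a 1.40-fold range. Replicate 3 was the lowest in each genotype, and the genotype means were 29654 ± 4939 in ED and 30141 ± 3877 in WT (log2 fold change -0.03, SE 0.15). Its direction turned to 0.12 without ED replicate 3 and to 0.055 without WT replicate 2. Cask, the gene in whose bounds Gpr34 lies, was at 2311 ± 262 in ED and 2502 ± 164 in WT, far below Gpr34.

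Cx3cr1 and Tmem119, both among the most abundant transcripts, were likewise alike in the genotypes. Cx3cr1 had 160061, 169431 and 158115 in ED, against 172572, 174182 and 155042 in WT. The ED values fell inside the WT range, with a log2 fold change of -0.04 (SE 0.15, limma adjusted p = 1, exact permutation p = 0.7). Tmem119 had 72302, 69200 and 67219 in ED and 70957, 83329 and 64268 in WT microglia. WT replicate 2 was again the highest, and the log2 fold change of -0.06 (SE 0.13) turned to 0.042 without it.

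**Figure D3:**
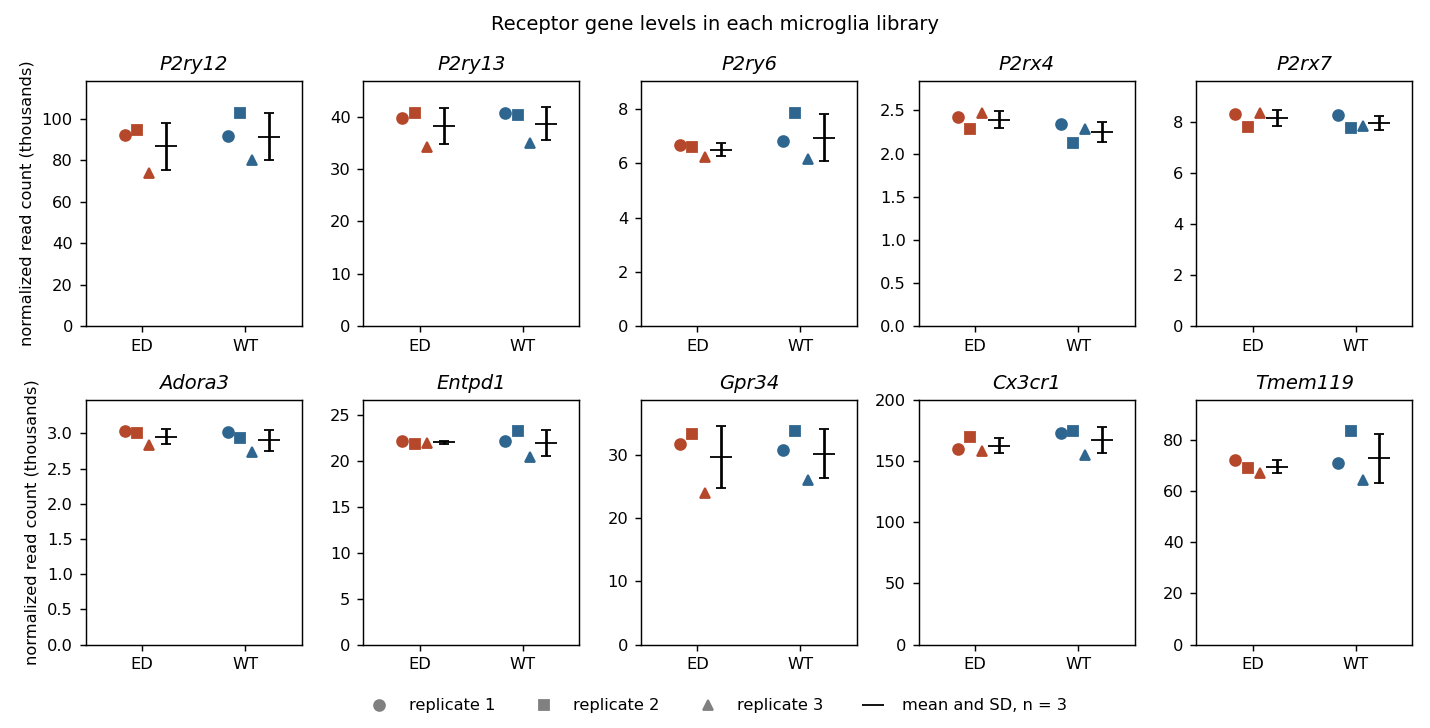
Normalized read count divided by 1000 (axes from 0) of each gene in the 3 ED libraries (left, red) and the 3 WT libraries (right, blue), with marker shape giving the replicate and black bars the mean and SD. For P2ry12, P2ry13 and Gpr34 the triangle (replicate 3) is lowest in both genotypes, at 73904 and 80094 for P2ry12.

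The residual SD within genotypes exceeded the size of the log2 fold change for all of the 10 genes but P2rx4, at 0.07 against 0.09. Differences between mice were shared by part of the genes. Highest in WT replicate 2 were 6 of the 10, and lowest in a replicate 3 library 8 of the 10, of which 3 in ED replicate 3 and 5 in WT replicate 3. The share of all genes with these patterns was not counted. The values summed over all genes were likewise highest in WT replicate 2, at 2.69e+07. They were lowest in ED replicate 3 and WT replicate 3, at 2.56e+07 in each. Relative to the mean of the 6 libraries, P2ry12 was -0.26 on the log2 scale in ED replicate 3 and -0.15 in WT replicate 3, and Gpr34 was -0.30 and -0.19. P2rx4 and P2rx7 ran against this pattern in ED replicate 3, at 0.09 and 0.05, and in WT replicate 2, at -0.13 and -0.05, but were also below their means in WT replicate 3, at -0.02 and -0.04. Averaged over the 10 genes the deviations were 0.04, 0.03 and -0.09 in ED and 0.04, 0.09 and -0.11 in WT. The residual SD within genotypes was 0.22 for Gpr34 and 0.19 for P2ry12 on the log2 scale, above that of 90.2% and 83.1% of the 5084 genes with a mean of at least 1000, whose median was 0.11. For P2rx7 it was 0.05, above 8.60% of them, and 5 of the 10 genes were below that median.

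**Figure D4:**
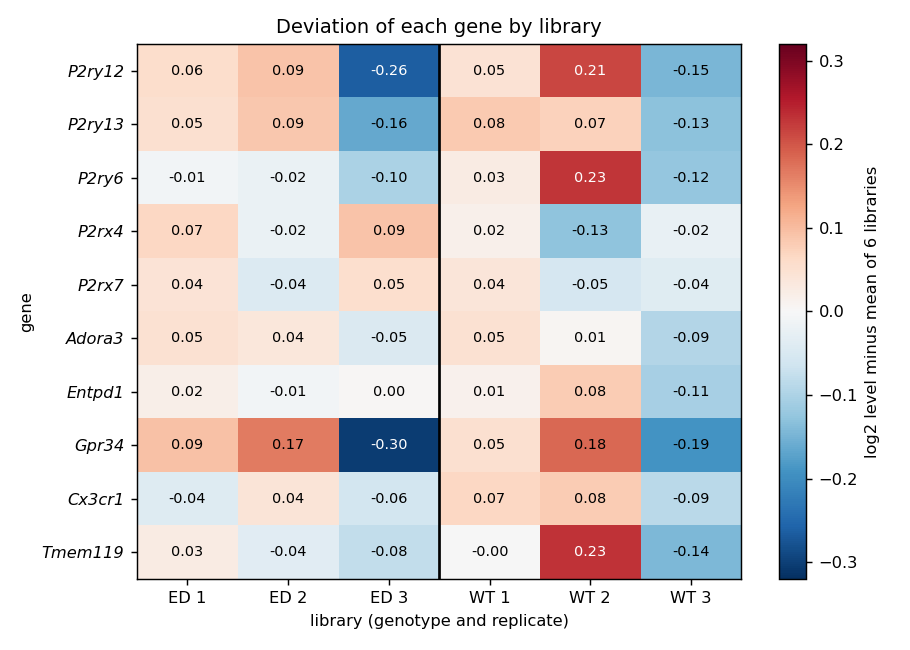
Log2 level of each gene (rows) in each library (columns, ED left of WT) minus its mean over the 6 libraries, blue for low and red for high. The columns of replicate 3 are mostly blue in both genotypes, down to -0.30 for Gpr34 in ED, while P2rx4 and P2rx7 are red in ED replicate 3.

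Across the 6 libraries, which share their depth and scaling with all genes, P2ry12 and Gpr34 gave a Pearson r of 0.98 (Spearman rho 1.00), and 0.82 without the 2 libraries farthest from the median of P2ry12. P2ry12 and its neighbour P2ry13 had r = 0.93 (rho 0.71), but only 0.13 without those 2 libraries, ED replicate 3 and WT replicate 3, so that relation rests on them. P2rx4 and P2rx7 had r = 0.89 (rho 0.94) and 0.90 without the 2 farthest libraries, and P2ry6 and Tmem119 0.98 (rho 0.94) and 0.84. P2ry12 and P2rx4 moved in opposite directions (r = -0.67, rho -0.60). With 6 points these values are a description.

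The genes whose log2 values followed the mean deviation of the 10 most closely were Pcca, a propionyl-CoA carboxylase subunit gene, Tmem100, the death domain adaptor gene Fadd, the ubiquitin ligase scaffold gene Cul2 and the interleukin receptor gene Il13ra1, with r from 0.993 to 0.996 over 6 libraries. Il13ra1 had 3927, 3925 and 3340 in ED and 4030, 4186 and 3179 in WT, low in both replicate 3 libraries like Gpr34. Of 10967 genes with a mean of at least 100, 6.78% reached r = 0.9. Dissociation response genes, which enzymatic digestion induces, summed to 111396, 186120 and 173341 in ED and 195826, 235358 and 152338 in WT libraries for all 11 listed, with WT replicate 2 again the highest and ED replicate 1 the lowest. Not all of them followed the sum. Hspa1a and Hspa1b were instead lowest in WT replicate 2, at 899 and 648, and had log2 fold changes of 0.35 and 0.55. Fosb and Nr4a1 were highest in WT replicate 1. The part of the dissociation response in the differences between mice was not tested.

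The ligand of the fractalkine receptor was also measured. Cx3cl1, which encodes fractalkine and is made mainly by neurons, had 171, 170 and 190 in ED, against 214, 287 and 262 in WT microglia preparations. All 3 ED values lay below all 3 WT values, with means of 177 ± 11.1 in ED and 254 ± 37.0 in WT (log2 fold change -0.51, SE 0.14). The unadjusted limma p was 0.00585 and the adjusted p = 1, so the gene did not pass over all genes. All 10 neuron markers were listed and none was at 0, with sums of 2474, 2937 and 3296 in ED and 3889, 3568 and 3855 in WT. Of the 10, 8 had no overlap between genotypes, all lower in ED, where 3.42% of all genes had every ED value below WT. Tubb3 and Slc17a7 overlapped, with log2 fold changes of 0.0012 and -0.34. Snap25, a synaptic SNARE gene, was at 574 ± 142 in ED and 797 ± 43.2 in WT. The part of neuronal RNA in the Cx3cl1 difference was not tested.

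Of the 20 listed ligands and signalling partners of the 10 proteins, 4 were higher and 16 lower in ED, the median log2 fold change was -0.05, and 0 passed. Besides Cx3cl1, the smallest p was that of the inhibitory G protein subunit gene Gnai3, at 2277 ± 118 in ED and 2466 ± 242 in WT. Abhd16a, whose lipase makes lysophosphatidylserine, the GPR34 ligand, was at 2291, 2267 and 2272 in ED and 2148, 2145 and 2234 in WT, without overlap between genotypes but with a log2 fold change of only 0.07 (SE 0.07). It was 1 of the 20 with every ED value above WT, as 2.32% of all genes were. Kcnk13, the gene of the potassium channel THIK-1 that acts with P2RY12, was at 2101 ± 168 in ED and 2175 ± 232 in WT, and the sheddase genes Adam10 and Adam17, which release fractalkine from membranes, had log2 fold changes of -0.09 and -0.0033.

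Of the 14 remaining P2Y, P2X and adenosine receptor genes 11 were listed, and P2ry4, P2rx2 and P2rx5 were not. In ED 5 were higher and 6 lower, the median log2 fold change was -0.0047, and 0 passed. P2rx3, a channel gene typical of sensory neurons, was near the low end of the table at 33.7, 30.1 and 31.0 in ED and 23.7, 19.6 and 20.8 in WT (log2 fold change 0.55, SE 0.25). Adora1, the adenosine A1 receptor gene, was at 180 ± 13.9 in ED and 214 ± 20.8 in WT. The unadjusted limma p of P2rx3 was 0.0560. P2ry10b was at 539, 622 and 594 in ED and 526, 516 and 531 in WT. It and P2rx3 were the 2 of the 11 genes without overlap, both higher in ED. Of all genes, 2.32% had every ED value above WT. P2ry14, a UDP-glucose receptor gene of the cluster that holds P2ry12 and P2ry13, was at 18.2 ± 5.48 in ED and 17.4 ± 9.73 in WT, far below both.

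Among 21 listed genes for release, breakdown and uptake of nucleotides and nucleosides, 9 were higher and 12 lower in ED, the median log2 fold change was -0.01, and 0 passed. The pannexin gene Panx2 had the smallest p, at 52.5, 52.1 and 80.2 in ED and 109, 90.1 and 74.5 in WT (log2 fold change -0.57, SE 0.24), followed by the nucleoside transporter gene Slc28a2 at 21.6 ± 3.63 in ED and 14.1 ± 5.70 in WT. The unadjusted limma p of Panx2 was 0.0380. Entpd5, which encodes a nucleotidase of the secretory pathway, was at 411, 429 and 411 in ED, against 456, 452 and 470 in WT. Its ED values were all below WT, by 0.14 on the log2 scale (SE 0.09). This held for 1 of the 21 genes and for 3.42% of all genes. Panx1, a channel gene for ATP release, was at 224 ± 12.3 in ED and 243 ± 35.2 in WT. Nt5e, whose product turns AMP into adenosine, was near the floor of the table and spread widely in WT (log2 fold change -0.21, SE 0.42).

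Of the 23 listed genes among other homeostatic microglia genes, 5 were higher and 18 lower in ED, the median log2 fold change was -0.03, and 0 passed or had an unadjusted p under 0.05. Rhob, a small GTPase gene, was at 64306 ± 6805 in ED and 73135 ± 15886 in WT, and Ltc4s, a leukotriene synthase gene, at 6723 ± 786 in ED and 6288 ± 339 in WT. Both overlapped between genotypes. Selplg, the neighbour of Tmem119, shared its peak in WT replicate 2, with 107322, 105696 and 106780 in ED and 107730, 129382 and 103461 in WT. Med12l, the host of P2ry12 and P2ry13, did not follow them, at 1403, 1697 and 1720 in ED and 1758, 1236 and 1913 in WT, and was lowest in WT replicate 2, where P2ry12 was highest. Next to P2rx4, Camkk2 was at 2356 ± 207 in ED and 2274 ± 318 in WT, and next to P2ry6, P2ry2 was at 34.1 ± 17.2 in ED and 48.0 ± 6.13 in WT. Within the bounds of Cx3cr1, Csrnp1 was at 1433 ± 275 in ED and 1557 ± 166 in WT, and Gm33858, an antisense gene that overlaps Cx3cr1 in part and shares 78 exon bases with it, at 2405 ± 612 in ED and 1994 ± 576 in WT (SD, n = 3 each).

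**Figure D5:**
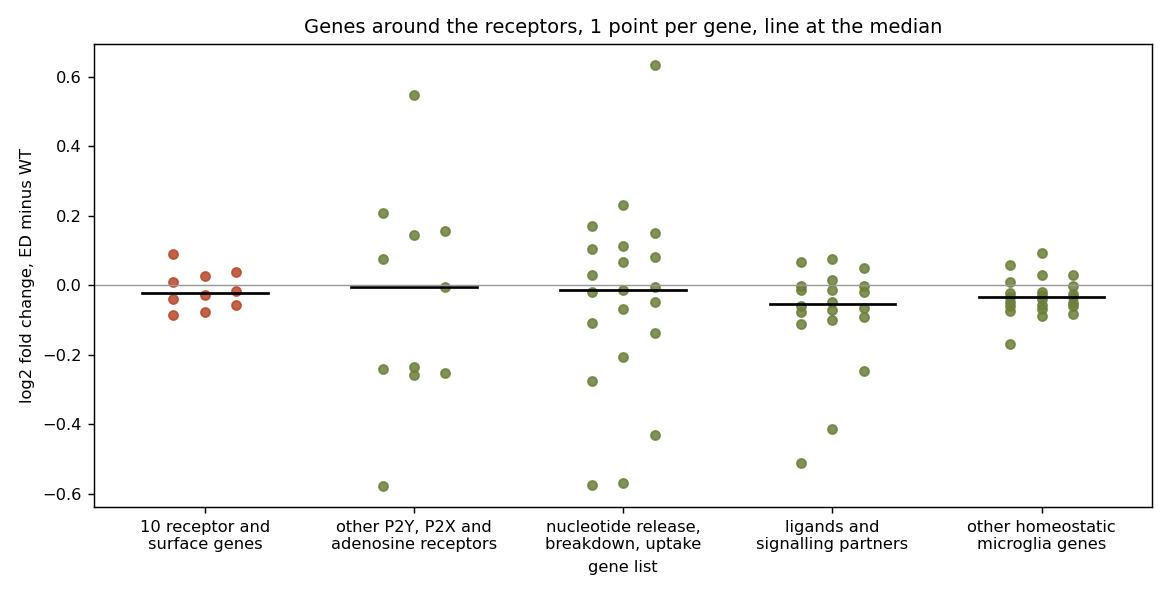
Log2 fold change of ED over WT (vertical axis) for the 10 genes in red and for the listed genes of 4 surrounding lists in green, 1 point per gene with a line at the median. The 10 genes lie between -0.09 and 0.09, and the point at -0.51 among ligands and partners is Cx3cl1.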

How the data were processed

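RNA of CD11b+ brain cells was sequenced as paired reads. Per the submitters' processing notes, the build was GRCm38, and the tools named are DESeq2, featureCounts (Subread 1.5.2), STAR 2.5.2b and Trimmomatic 0.36. The study's methods name a human build and partly other tools for its RNA-seq. The table deposited by the authors holds, per gene and library, a normalized signal, the reads of a gene over the size factor of its library, and a log2 fold change and p-value columns deposited by the authors from their own comparison, which were not used. Genes with a mean under 9.87 were not analysed here. The lower values of each library, the only ones checked, were all whole multiples of 1 step (tolerance 0.01 of a step). From this step the depth was inferred. No gene stood at 1 step in the ED libraries, so count models were not fitted.

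ED was compared with WT on log2(value + 1), without further scaling or filter, with limma 3.58.1 in R 4.3.3 (genotype only, mean-variance trend, Benjamini-Hochberg adjustment over all 15954 rows). Fold changes are on that scale. The fit was tested on simulated data. Single values and ratios were compared by exact two-sided permutation tests. Of the gene identifiers, 15922 matched GENCODE M21, and 22 blank or date-like names were restored from it. Of rows with a repeated name, the one with the highest mean was used.

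The 10 genes, the lists and the ratios were chosen with earlier results of these data known. Named were all 10 genes, the genes with the 2 smallest p of each of the 4 pathway lists (further receptors, nucleotide handling, partners, homeostatic genes), listed genes that overlap or adjoin one of the 10, and the 5 genes closest to the mean pattern. Other genes (Abhd16a, P2ry10b, Entpd5, Kcnk13, Adam10, Adam17, Panx1, Nt5e, Snap25, Tubb3, Slc17a7, Hspa1a, Hspa1b, Fosb, Nr4a1, Stab1, Gm33858) were named after their values were seen. S100a9 was likewise named after its values were seen. Mouse numbers in the titles did not pair the libraries. Scaling, pseudocount, a filter, the trend, library weights, a block and leaving out each library were varied. The level of 1 further marker is not reported here.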

Additional observations from a re-analysis of the deposited data

How the results depend on the processing

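No member of the 10 passed under any of the 16 settings run, and 0 had an unadjusted p under 0.05 in any of them. Over all genes 0 passed in 15 of the 16, while library weights, at 0.35 to 3.23 with the most on WT replicate 1 and ED replicate 2, called 4 (Cst7, Fn1, Gpnmb and Spp1). Genes at an unadjusted p under 0.05 numbered 290 in the analysis as reported, 129 among genes with a mean of at least 100, 498 without the trend, 1761 with weights and 912 without WT replicate 3. Directions near 0 turned as follows, as log2 fold changes, and the cause was not tested. P2ry13 was 0.0016 with the same total and 0.016 with scaling by microglia markers, where Gpr34 was 0.0036. With weights P2ry12 was 0.0084, P2rx7 -0.032, Entpd1 -0.0034 and Gpr34 0.066. Leaving out each library in turn gave ranges of -0.17 to 0.036 for P2ry12, -0.088 to 0.060 for P2ry13, -0.17 to 0.0053 for P2ry6, -0.13 to 0.12 for Gpr34, -0.145 to 0.042 for Tmem119, -0.013 to 0.058 for Adora3 and -0.042 to 0.050 for Entpd1. The log2 ratio differences ranged from -0.043 to 0.094 for P2ry12 to P2ry6, -0.16 to 0.027 for P2ry12 to Entpd1 and -0.052 to 0.058 for Cx3cr1 to Tmem119. P2rx4 and Cx3cr1 kept their direction in every setting run, but not their size. P2rx4 was 0.012 with weights and 0.048 to 0.12 with a library left out, and Cx3cr1 -0.0068 with marker scaling and -0.094 to -0.0098 with a library left out. With mouse number as a replicate block 0 genes passed and 403 had an unadjusted p under 0.05. Same-numbered libraries had deviations that correlated at -0.27, 0.098 and 0.43, so the numbers were not taken as pairs. The 2 planned count-model refits were not run. With 3 mice per genotype an exact test cannot go below 0.1. Where nothing says otherwise, limma p-values rest on the spread between these mice as moderated across genes of like level.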
